A study of Mus musculus with 10 samples.

Results

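Island shore tiles are the CpG-poor kilobases that lie directly beside a CpG-dense kilobase. Each autosome was cut into tiles of 1 kb, and a tile was taken as a shore when it held 3 to 10 distinct covered CpGs and at least 1 of its adjacent tiles held 30 or more. The rule used only the number of covered CpGs and not their methylation. It gave 1895 shore tiles out of 165978 tiles with at least 3 covered CpGs, or 1.14%, and out of 133057 autosomal tiles in the same band of 3 to 10 CpGs, or 1.42%. The shore tiles held 11670 CpGs, with a median of 6 per tile, and bordered 1654 different dense tiles whose median was 38 CpGs. Of these dense tiles, 241 had a shore tile on each side, and 12 shore tiles lay between a pair of dense tiles. All 19 autosomes had shore tiles, between 48 and 163 each.

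DNA methylation was read by reduced representation bisulfite sequencing (RRBS), which sequences short fragments cut at CCGG sites and so favours CpG-rich DNA. Unmethylated cytosines are converted and read as thymine, and the methylation level is the percentage of reads that still show cytosine. There were 10 libraries of testis DNA from F2 mice, 5 labelled arsenic group and 5 labelled control group. All 10 share the tissue and the F2 generation, and the labels used here do not say the strain, age, dose, route or which generation received arsenic. The labels do not state that the libraries of a group are from separate animals, so a p-value here reflects library-to-library spread, part of which may be technical.

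A cytosine was covered by a median of 35 to 40 reads in the arsenic libraries and 27 to 36 in the control libraries, and a shore tile by a median of 235 to 347 read calls. Control libraries 4 and 5, at 27 and 29 reads, had the highest mean levels in shore tiles and dense neighbours alike. Control library 2, also at 29 reads, did not stand high, with means of 18.9% in shore tiles and 5.61% in dense neighbours. Whole testis is a mixture of germ cells at several stages and somatic cells, and a shift in their proportions cannot be told apart from a change within a cell type. Without molecular identifiers, the limits given for counts of 0 (3 counts of the total) include counting error only. They also take all read calls of a tile as independent. CpGs of a tile can share reads, so the limits are too tight where they do.

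CpG islands are stretches where CpGs have been kept at high density, mostly at gene promoters, and they are usually free of methylation. Shores are their flanks, where CpG density drops and methylation climbs toward the high level of the rest of the genome, and they are known for differences between tissues and cell types. In the male germ line, methylation is erased and set again largely before birth, and most CpG islands stay unmethylated through this resetting.

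The number of covered CpGs in a tile is not the number in the sequence, and the sequences show this. In the RefSeq promoter table for GRCm38.p6, which covers 250 bases before and 50 after a start site and does not hold every gene, 193 promoters of 181 genes started inside shore tiles. These windows held a median of 20 CG dinucleotides, of which 18.7% were covered, and 62.2% of them had an observed-to-expected CG ratio over 0.6 with a GC content over 50%. Promoters that started in dense tiles held a median of 28 CG with 51.4% covered, and 90.2% met the same pair of limits. Promoters that started in other tiles with 3 to 10 CpGs held 13, and 44.7% met the limits. Some shore tiles thus hold CpG-dense promoters of which few CpGs were read, and "shore" below means the rule and not an annotated shore. Inhbb, which encodes a subunit of activin B and inhibin B made by Sertoli cells, and Mbd6, a member of the methyl-CpG-binding domain family, are shown because their start sites lie in shore tiles described below. The 250 bases before the start site run 5′ to 3′ on the gene's strand, and capitals would mark covered CpGs. None of the 21 CG of Inhbb (chr1:119422249-119422498, minus strand) or the 17 CG of Mbd6 (chr10:127289019-127289268, minus strand) was covered.
Inhbb: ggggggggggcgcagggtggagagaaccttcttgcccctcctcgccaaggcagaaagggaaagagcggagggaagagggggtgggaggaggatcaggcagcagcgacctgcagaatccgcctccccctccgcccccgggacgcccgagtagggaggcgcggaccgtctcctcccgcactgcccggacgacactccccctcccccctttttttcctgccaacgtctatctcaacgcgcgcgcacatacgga
Mbd6: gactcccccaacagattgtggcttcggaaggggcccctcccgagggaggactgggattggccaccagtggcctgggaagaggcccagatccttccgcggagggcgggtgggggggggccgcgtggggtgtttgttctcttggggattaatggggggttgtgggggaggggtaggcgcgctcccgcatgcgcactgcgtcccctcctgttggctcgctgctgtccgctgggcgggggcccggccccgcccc

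The dense side of the boundary, with some shore CpGs at Romo1, is shown for genes whose shore tiles are described below. In these promoters nearly every CG was covered, and the capitals mark covered CpGs. Kcnh8 (chr17:52602459-52602708, plus strand) encodes a voltage-gated potassium channel, and all 20 of its CG were covered, with levels per CpG between 0 and 8.73%. Eif4a1 (chr11:69672424-69672673, minus strand) encodes the RNA helicase of translation initiation, and its 18 covered CpGs lay between 2.73 and 5.94%. These levels lean on 1 library, at 30.3%. The Eif4a1 means were 2.16 ± 3.93% in arsenic libraries and 6.14 ± 13.5% in control libraries. Cdh24 (chr14:54641365-54641614, minus strand) encodes a cadherin, and 19 of its 22 CG were covered, at 0 to 9.09%. Romo1 (chr2:156143983-156144232, plus strand) encodes a mitochondrial membrane protein, and 25 of its 26 CG were covered, with levels that spread between 0.763 and 49.1%. Its covered CpGs at 156143991 and 156143999 lie in the Nfs1 shore tile described below.
Kcnh8: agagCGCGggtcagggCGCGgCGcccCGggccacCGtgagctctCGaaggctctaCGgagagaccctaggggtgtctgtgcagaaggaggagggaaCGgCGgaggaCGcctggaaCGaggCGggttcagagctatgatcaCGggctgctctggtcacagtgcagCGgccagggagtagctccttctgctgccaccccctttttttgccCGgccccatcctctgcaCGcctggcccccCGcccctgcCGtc
Eif4a1: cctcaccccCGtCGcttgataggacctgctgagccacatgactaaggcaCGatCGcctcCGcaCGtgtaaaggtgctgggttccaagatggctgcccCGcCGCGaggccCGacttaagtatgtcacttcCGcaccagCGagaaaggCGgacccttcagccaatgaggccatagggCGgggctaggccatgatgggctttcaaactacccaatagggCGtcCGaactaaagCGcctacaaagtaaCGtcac
Cdh24: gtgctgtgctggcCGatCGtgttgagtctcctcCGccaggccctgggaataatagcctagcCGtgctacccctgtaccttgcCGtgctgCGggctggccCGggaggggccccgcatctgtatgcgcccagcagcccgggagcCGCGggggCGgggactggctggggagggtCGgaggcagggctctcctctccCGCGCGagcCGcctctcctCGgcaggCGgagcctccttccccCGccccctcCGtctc
Romo1: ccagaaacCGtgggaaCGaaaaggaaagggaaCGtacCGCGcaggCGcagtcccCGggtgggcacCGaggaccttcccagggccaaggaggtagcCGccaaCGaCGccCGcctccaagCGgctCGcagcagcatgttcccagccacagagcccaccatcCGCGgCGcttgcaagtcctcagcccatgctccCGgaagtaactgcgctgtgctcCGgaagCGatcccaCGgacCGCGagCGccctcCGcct
The mean over the covered CpGs of the Romo1 promoter was 18.2 ± 1.499% in arsenic libraries and 21.3 ± 4.19% in control libraries (SD, n = 5 each). The Kcnh8 promoter had 2.44 ± 2.24% in arsenic libraries and 2.44 ± 2.89% in control libraries. Sequences of the shore tiles outside these promoters are not shown.

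Most shore tiles were nearly unmethylated, and a minority were as methylated as the bulk of the genome. Of the 1895 tiles, 1382 (72.9%) had a level under 20%, 374 (19.7%) lay between 20 and 80%, and 139 (7.34%) were over 80%, and 929 tiles were under 5%. Among the 131162 other autosomal tiles with 3 to 10 CpGs the shares were 8.86%, 22.8% and 68.3%. The median shore tile had a level of 5.22%, against 2.41% for dense neighbours and 88.9% for the other tiles. The mean over shore tiles was 19.14 ± 0.465% (SD over the 10 libraries), against 5.81 ± 0.493% over the dense neighbours and 75.9 ± 0.311% over the other tiles.

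**Figure D1:**
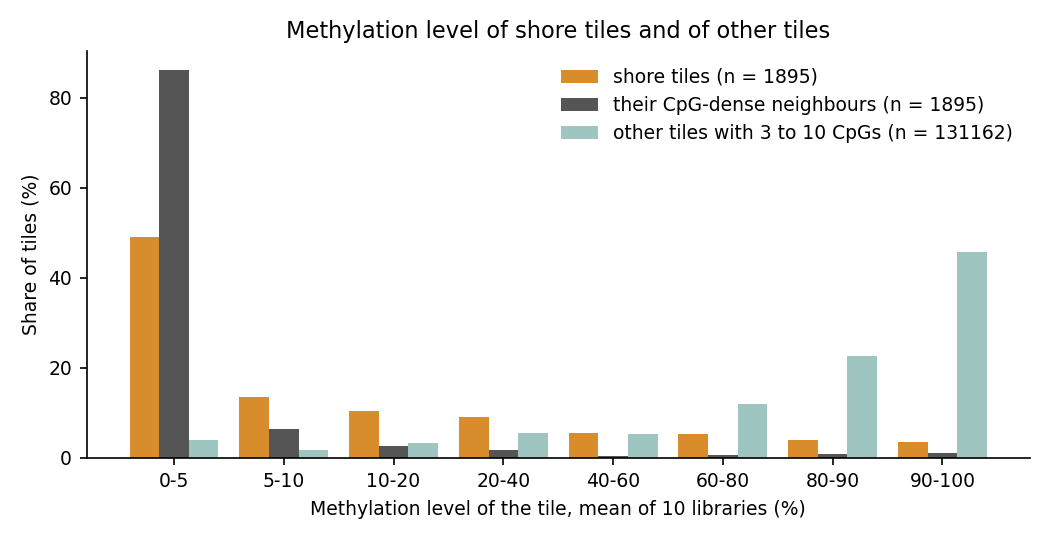
Share of tiles (%) by methylation level (mean of 10 libraries, bins of unequal width) for shore tiles, their CpG-dense neighbours, counted once per shore tile, and other autosomal tiles with 3 to 10 CpGs. The lowest bin holds 929 of the 1895 shore tiles, and most of the other tiles lie over 80%.

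This gap was present at each number of covered CpGs: from 3 to 10, the mean over shore tiles was lower than that over other tiles in all 10 libraries. With 3 CpGs, shore tiles averaged 26.4 ± 0.441% and other tiles 79.6 ± 0.304%. With 10 CpGs, shore tiles averaged 13.2 ± 0.542% and other tiles 62.8 ± 0.342%. The 176 shore tiles with 10 CpGs had a median level of 3.61%, and the 179 tiles just outside, with 11 CpGs beside a dense tile, had 2.45%. The 137 shore tiles whose densest neighbour held 30 CpGs had a median of 12.6%, and the 181 tiles beside a tile of 29 CpGs had 6.38%.

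Within shore tiles, the 374 tiles of 20 to 80% were not uniform. Their 2166 CpGs included 21.6% with a level under 20% and 13.1% over 80%, and the lowest and highest CpG of such a tile differed by a median of 43.0 points. In shore tiles under 20% that median was 5.91 points, and in those over 80% it was 10.4 points. The spread between libraries of a group followed the level class. Its median SD was 2.66 points in shore tiles under 20%, 5.90 points in those of 20 to 80% and 3.49 points in those over 80%, against 3.72, 5.80 and 3.31 points in other tiles of the same classes.

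The step across the boundary was measured in each library as the log2 ratio of methylated to unmethylated reads (0.5 added to each) in the tile with fewer CpGs minus that in its adjacent tile with more. It was tested with limma over all 33344 adjacent autosomal pairs, and a step was called at a Benjamini-Hochberg adjusted p under 0.05 with at least 10 percentage points. In 566 shore tiles (29.9%) the shore was called higher than its dense neighbour, where 20.1% of all adjacent pairs had the tile with fewer CpGs called higher. In 12 shore tiles (0.633%) the shore was called lower, where 9.64% of all pairs were called in that direction. The other 1317 shore tiles passed in neither direction. The step was positive in all 10 libraries in 674 shore tiles and negative in all 10 in 37, counts given without a share over all pairs. Its mean was 13.3 ± 0.136 points in arsenic libraries and 13.3 ± 0.224 points in control libraries, and its median over tiles was 2.12 points.

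Of the 1805 shore tiles whose dense neighbour was under 20%, 1375 were also under 20%, 349 lay between 20 and 80% and 81 were over 80%. Of the 39 whose dense neighbour was over 80%, 38 were over 80% and none was under 20%. The 51 tiles beside a dense tile of 20 to 80% divided into 7 under 20%, 24 between and 20 over 80%.

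Methylation climbed with distance into the shore. Over the shore tiles beside a dense tile under 20%, CpGs in the outermost 100 bp of the dense tile averaged 2.89 ± 0.163% in arsenic libraries and 3.29 ± 0.588% in control libraries. Shore CpGs up to 100 bp from the outermost covered CpG of the dense tile averaged 4.005 ± 0.305% in arsenic libraries and 4.38 ± 0.621% in control libraries. At 400 to 500 bp they averaged 13.9 ± 0.214% in arsenic libraries and 14.4 ± 0.776% in control libraries. At 900 to 1000 bp they averaged 35.6 ± 0.386% in arsenic libraries and 36.0 ± 0.824% in control libraries. The groups thus overlapped within their SDs at each of these distances, and the climb within a group was many times the SD. Different tiles supply CpGs at different distances, 903 of them in the first 100 bp and 244 at 900 to 1000 bp. In the next tile outward, CpGs at 1900 to 2000 bp averaged 40.9 ± 0.450% in arsenic libraries and 41.2 ± 1.47% in control libraries, still under the mean of the other tiles.

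**Figure D2:**
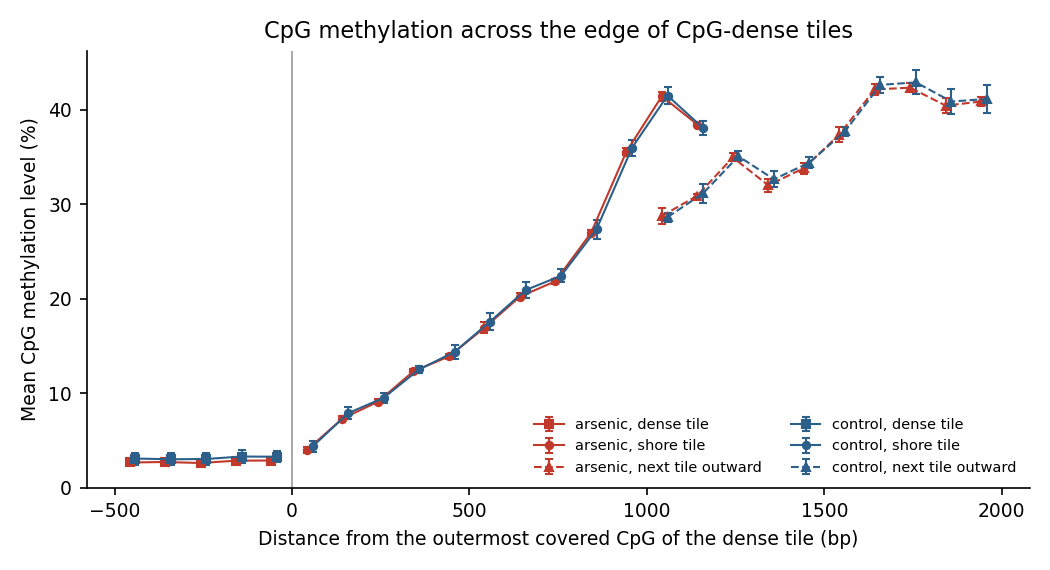
Mean CpG methylation level (%) against distance (bp) from the outermost covered CpG of the dense tile, in bins of 100 bp, for shore tiles whose dense neighbour is under 20%. Points are means and bars SDs of 5 arsenic or 5 control libraries. The level lies near 3% inside the dense tile, passes 35% before 1000 bp, and starts lower again in the next tile outward, which other tiles supply.

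The climb was also present within single tiles. In 384 shore tiles with covered CpGs on both sides of the midpoint, the 500 bp near the dense tile averaged 22.2 ± 0.774% and the far 500 bp averaged 37.9 ± 0.608% (SD over 10 libraries), and the far side was higher in all 10 libraries. The far side was at least 10 points higher in 169 of these tiles (44.01%) and the near side in 10 (2.60%). In the 133 tiles of 20 to 80% beside a dense tile under 20%, the near side averaged 32.8 ± 0.862% and the far side 63.7 ± 0.944%, and the far side was at least 10 points higher in 105.

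The 6 steepest rises, ranked by the library with the smallest step, were chosen for their step and are given as a description. Exon, intron and UTR positions are not in the gene table used, so a tile is placed only as inside or outside a gene and within 1 kb of its end. The steepest was a shore whose dense neighbour holds the start site of Cyba, the gene of the p22phox subunit of NADPH oxidase (mm10, chr8:122433001-122434000). The tile lies upstream of that start site, and its CpGs lie inside the adjacent gene Mvd, which encodes a decarboxylase of the mevalonate pathway. Its 5 CpGs had 100, 98.99, 94.7, 97.4 and 97.8% in arsenic libraries 1 to 5, and 94.1, 96.9, 98.7, 94.3 and 96.7% in control libraries 1 to 5. Its dense neighbour held 31 CpGs and averaged 2.42 ± 2.35% in arsenic libraries and 2.49 ± 1.24% in control libraries. Every library placed the shore over 90 points above the dense tile, and the groups overlapped on each side of the boundary. The shore tile upstream of the Cdh24 promoter shown above (chr14:54642001-54643000), with its CpGs inside the gene Acin1, had 94.7 ± 1.002% in arsenic libraries and 93.3 ± 1.85% in control libraries, and its dense neighbour had 2.26 ± 1.33% in arsenic libraries and 1.86 ± 1.225% in control libraries. Its 10 CpGs lay 786 to 930 bp from the tile boundary and had levels between 85.7 and 96.7%. The others lay inside Zdhhc13, a palmitoyltransferase gene, inside Map9, which encodes a microtubule-associated protein, upstream of Hexdc, a hexosaminidase gene, and between genes nearest H3f3a, which encodes histone H3.3.

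The 6 steepest falls ran the other way. Inside Nomo1, which encodes a protein of the endoplasmic reticulum (chr7:46047001-46048000), the shore tile had 69.0 ± 2.16% in arsenic libraries and 69.0 ± 1.58% in control libraries, and the dense tile beside it had 86.8 ± 2.07% in arsenic libraries and 85.6 ± 1.4997% in control libraries. Within the Nomo1 shore, 1 of the 5 CpGs had 0.426% over all libraries and the other 4 had 93.8 to 98.6%, above the dense tile, so that fall rests on 1 CpG. Inside Foxo3, a forkhead transcription factor (chr10:42198001-42199000), the shore had 42.6 ± 11.6% in arsenic libraries and 42.0 ± 15.3% in control libraries, and the dense tile had 74.2 ± 2.73% in arsenic libraries and 74.8 ± 3.17% in control libraries. The other falls went between tiles of lower level. At Nfs1, the mitochondrial cysteine desulfurase, the shore (chr2:156143001-156144000) had 1.01 ± 0.601% in arsenic libraries and 1.81 ± 2.64% in control libraries. The dense neighbour of the Nfs1 shore holds the Romo1 start site and most of the promoter window shown above. That dense tile had 17.8 ± 2.90% in arsenic libraries and 21.1 ± 5.88% in control libraries. Shore tiles nearest Lhx8 and Pax7, both developmental transcription factors, and near Fsip1, which is known for a protein that interacts with the fibrous sheath of the sperm tail, had means of 2.09 to 4.64% in either group beside dense tiles of 15.7 to 20.8%.

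The flanks of 1 dense tile often differed from each other. Of the 241 dense tiles with a shore on both sides, 121 had both shores under 20%, 28 had both at 20% or over, and 92 had 1 of each. The median difference between the sides was 13.6 points, and it reached at least 10 points in every library in 92 dense tiles and at least 50 points in every library in 25. The levels of the left and right shore had a Spearman correlation of 0.17 over the 241 dense tiles, which share their libraries and the dense tile between them. Where just 1 of the shores overlapped a protein-coding gene (94 dense tiles), the higher shore was the one that did in 46 and the one that did not in 48. Among 98 dense tiles with start sites on 1 strand, the higher shore lay downstream in 56 and upstream in 42.

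The largest difference among the 241 was at Zdhhc13. The shore at chr7:48790001-48791000 averaged 94.0 ± 1.10% in arsenic libraries and 93.0 ± 2.25% in control libraries, and the shore on the other side of the same dense tile had 0.97 ± 0.94% in arsenic libraries and 0.70 ± 0.73% in control libraries. The smallest difference between the sides in any library was 90.7 points. Tet3, which encodes an enzyme that oxidises methylcytosine, also had unlike flanks. The shore at chr6:83455001-83456000 had 73.1, 71.7, 71.6, 80.5 and 67.7% in arsenic libraries 1 to 5, and 69.5, 67.1, 70.7, 67.9 and 65.8% in control libraries 1 to 5. The other Tet3 shore, at chr6:83457001-83458000, had no methylated read in any arsenic library and had 1.69% in control library 5 alone. The thinnest library at 0 allows a level of up to 6% there if calls on its CpGs are independent. The difference between the Tet3 flanks was therefore present in all 10 libraries, and the groups overlapped on each flank. Cmtm6, a chemokine-like MARVEL domain protein, had 88.1% on one side and 3.83% on the other over all libraries, and Coro1a, an actin-binding coronin, had 87.6% and 4.97%, and both were picked after their values were seen.

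**Figure D3:**
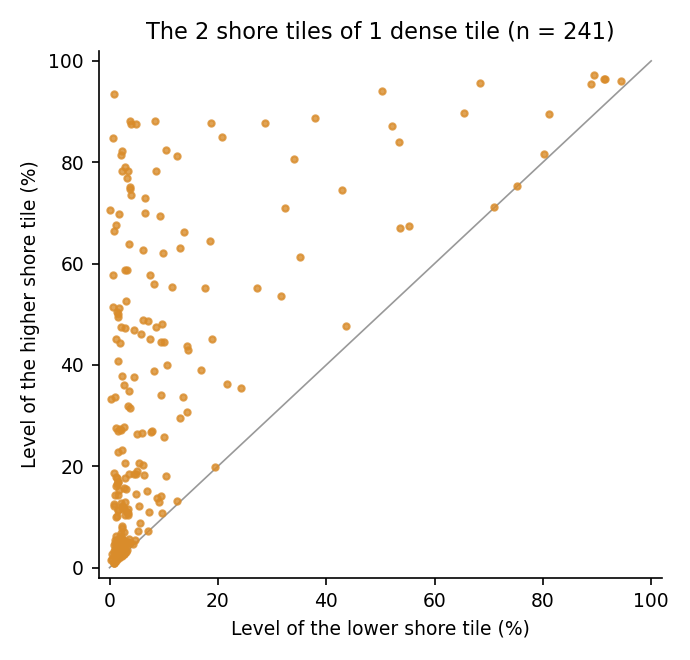
Methylation level (%) of the higher shore tile against that of the lower for the 241 dense tiles with a shore on each side (means of 10 libraries), with the line of equality. Points along the left edge far above the line are dense tiles with 1 shore near 0 and the other methylated, and 39 differ by at least 50 points.

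Position relative to genes went with the level, as a description without a test. The 1405 shore tiles whose dense neighbour lay within 1 kb of the end of a protein-coding gene averaged 17.04 ± 0.459% (SD over 10 libraries), the 367 whose neighbour lay elsewhere inside a gene averaged 26.4 ± 0.527%, and the 123 between genes averaged 21.5 ± 0.714%. In the same order, their dense neighbours averaged 3.56, 13.0 and 10.1%, and the mean steps were 13.5, 13.4 and 11.4 points. The dense neighbours thus differed by position as well. Shore tiles that themselves held a start site of the promoter table had the lowest level, at 6.13 ± 0.368% over 177 tiles. Where the start site lay in the dense neighbour only, 850 shore tiles averaged 16.6 ± 0.494%. Where neither held a start site of that table, 804 averaged 25.0 ± 0.494%. The promoter table does not hold every gene, so some of these 804 may lie at gene starts that it lacks. The 64 shore tiles of chromosome 18 could not be placed this way. Shores downstream of the start site averaged 17.9 ± 0.541% (399 tiles) and those upstream 15.4 ± 0.508% (372 tiles). The level also fell with the density of the neighbour, at 26.3 ± 0.406% beside tiles of 30 to 34 CpGs and 10.2 ± 0.608% beside tiles of 60 or more. Among shore tiles with a start site, 118 with 15 or more CG in the promoter window had a median of 2.11% and 59 with fewer had 3.94%.

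Between arsenic and control libraries, no shore tile passed the test. The mean over the shore tiles was 18.6, 19.14, 18.8, 18.8 and 19.2% in arsenic libraries 1 to 5, and 18.9, 18.9, 19.3, 19.5 and 20.2% in control libraries 1 to 5. Control libraries 4 and 5 were the highest of all, and the remaining control libraries lay within or next to the arsenic range. The means were 18.9 ± 0.246% in arsenic libraries and 19.3 ± 0.564% in control libraries (SD, n = 5 each), a difference of -0.41 points. Without control libraries 4 and 5 the difference was -0.07 points, and without control library 5 alone it was -0.19 points. The dense neighbours showed the same order, at 5.59 ± 0.214% in arsenic libraries and 6.03 ± 0.619% in control libraries. Whether depth or another property of control libraries 4 and 5 had a part in this difference was not tested.

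**Figure D4:**
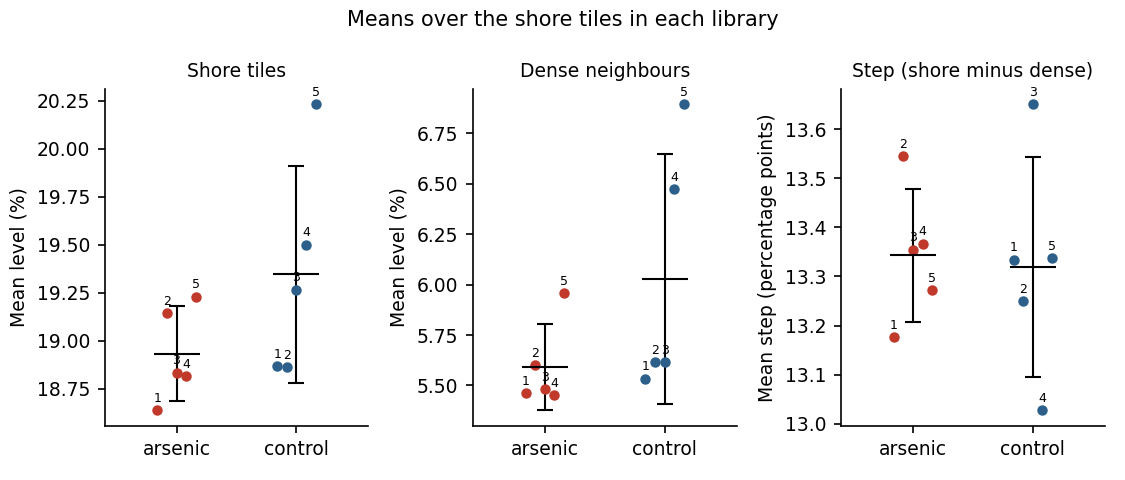
Mean over the shore tiles, over their dense neighbours (both %) and of the step between them (percentage points) in each of 5 arsenic and 5 control libraries, numbered as labelled, with the group mean and SD; the axes do not start at 0. Control libraries 4 and 5 stand highest in the first 2 panels, and in the third the groups overlap.

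Each tile was compared by a quasi-binomial regression of its methylated and unmethylated reads on the group, and p was adjusted by Benjamini-Hochberg over all 165978 tiles. A call needed a difference of at least 10 points and an adjusted p under 0.05. No shore tile was called, and 0% of all tiles were. The lowest adjusted p was 0.704 among shore tiles and 0.506 among all tiles. At an unadjusted p under 0.05 there were 37 shore tiles higher in arsenic (1.95%, against 2.47% of all tiles) and 76 lower in arsenic (4.01%, against 3.34%). Without control libraries 4 and 5, 48 shore tiles were higher in arsenic (2.53%, against 2.9% of all tiles) and 65 lower (3.43%, against 2.81%). In 43 of the 76 lower tiles (56.6%) the highest control library was 4 or 5, and so it was in 48.3% of the 5540 such tiles overall. The groups did not overlap in 4 shore tiles higher in arsenic (0.211%, against 0.349% of all tiles) and in 15 lower in arsenic (0.792%, against 0.483%). The median difference over shore tiles was -0.29 points, against -0.10 points over all tiles. Differences of at least 10 points in either direction occurred in 17 shore tiles (0.897%), a smaller share than the 1.20% of all tiles. limma on log2 ratios called 0 shore tiles, with 42 higher (2.22%, against 2.3% of all tiles) and 77 lower (4.06%, against 2.84%) at an unadjusted p under 0.05. A binomial model that counts reads as independent called 4 shore tiles higher in arsenic (0.211%, against 0.418% of all tiles) and 13 lower (0.686%, against 0.779%).

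The tiles with the smallest p in each direction are named here as tiles that did not pass. Lower in arsenic, the smallest p was at a shore inside Arrdc2, which encodes an arrestin-domain protein (chr8:70838001-70839000, 7 CpGs). It had 0.926, 1.47, 1.62, 1.95 and 2.19% in arsenic libraries 1 to 5, and 17.1, 10, 23.0, 3.16 and 24.1% in control libraries 1 to 5. All arsenic libraries lay under all control libraries, of which 1 lay close to the arsenic range (adjusted p = 0.704). Each of the 7 CpGs, 38 to 228 bp from the tile boundary, had a mean of 0 to 4.96% in arsenic libraries and 14.2 to 18.1% in control libraries. The CpGs share reads, and the dense neighbour had 5.39 ± 5.54% in arsenic libraries and 5.53 ± 4.53% in control libraries.

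The shore inside Cdkn1c, the imprinted gene of the cell cycle inhibitor p57 (chr7:143458001-143459000), had 10.3, 10.1, 13.1, 8.33 and 7.24% in arsenic libraries 1 to 5, and 18.1, 13.8, 21.5, 19.07 and 20.5% in control libraries 1 to 5. The groups did not overlap (adjusted p = 0.772), and the dense neighbour had 5.03 ± 1.84% in arsenic libraries and 7.84 ± 1.83% in control libraries. The shore inside Eif4a1 (chr11:69671001-69672000), next to the promoter shown above, had 0.455, 0, 0, 0.439 and 2.68% in arsenic libraries 1 to 5, and 5.19, 10.4, 3.36, 8.84 and 8.02% in control libraries 1 to 5 (adjusted p = 0.808). Its groups did not overlap either, and arsenic library 5 was the highest of its group. The dense neighbour of the Eif4a1 shore had 3.77 ± 1.02% in arsenic libraries and 6.49 ± 2.86% in control libraries, with overlap. The shore inside Kcnh8 (chr17:52603001-52604000) had 1.68 ± 0.815% in arsenic libraries and 5.83 ± 1.47% in control libraries without overlap, while the Kcnh8 promoter CpGs shown above averaged 2.44% in both.

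The shore inside Tmem117, which encodes a membrane protein (chr15:94630001-94631000), was the only one of the 8 above 20%. It had 77.5, 79.9, 77.6, 77.8 and 75.5% in arsenic libraries 1 to 5, and 86.5, 87.7, 82.6, 86.4 and 83.6% in control libraries 1 to 5. The groups did not overlap (adjusted p = 0.808), and the dense neighbour had 0.794 ± 0.447% in arsenic libraries and 0.714 ± 0.236% in control libraries. Its CpG nearest the dense tile had 40.5% in arsenic libraries and 58.7% in control libraries, and the other 6 had 77.4 to 86.3% in arsenic libraries and 84.4 to 93.2% in control libraries. In the remaining 3 the groups overlapped. The Inhbb shore, whose start site sequence is shown above, had 0.335 ± 0.352% in arsenic libraries and 5.60 ± 4.996% in control libraries. The shore of Csmd1, which encodes a complement-control membrane protein, had 0.498 ± 0.360% in arsenic libraries and 4.46 ± 3.49% in control libraries. The shore beside Ddit3, which encodes the stress-induced factor CHOP, is the tile that holds the Mbd6 start site, and it had 0.263 ± 0.251% in arsenic libraries and 4.44 ± 3.52% in control libraries.

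Higher in arsenic, the shore inside Uri1, which encodes a prefoldin-like protein (chr7:38018001-38019000), had the smallest p. It had 0, 10.4, 4.73, 5.65 and 3.71% in arsenic libraries 1 to 5, and 1.52, 0.134, 1.15, 0.221 and 0.373% in control libraries 1 to 5 (adjusted p = 0.808). Arsenic library 1, at 0, lay under all control libraries, so the groups overlapped. The dense neighbour of the Uri1 shore had 2.63 ± 2.07% in arsenic libraries and 4.53 ± 7.28% in control libraries, where control library 5 had 17.5%. The shore inside Ephb6, an Eph receptor without kinase activity (chr6:41604001-41605000), had 0, 0.847, 3.23, 11.9 and 5.48% in arsenic libraries 1 to 5. It had no methylated read in any control library, where the thinnest library at 0 allows up to 3.53% if calls are independent. Its 4 CpGs had as few as 19 to 23 reads each, so that limit is too tight if they share reads. Arsenic library 1 was at 0 too, so the groups overlapped. The dense neighbour of the Ephb6 shore had 4.36 ± 4.75% in arsenic libraries and 1.20 ± 1.20% in control libraries. The Nacc2 shore (chr2:26123001-26124000), beside the gene of a BTB-domain repressor, had 4.85, 6.28, 7.19, 4.94 and 5.61% in arsenic libraries 1 to 5, and 3.67, 1.56, 3.37, 2.85 and 4.07% in control libraries 1 to 5 (adjusted p = 0.808). At Nacc2 the groups did not overlap and differed by less than 3 points in their means, and 1 of its 9 CpGs, at 42.1% in arsenic libraries and 26.97% in control libraries, stood above the others, which were under 10% in both.

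The shore inside Btg3, an antiproliferative gene (chr16:78375001-78376000), was the only one of the 8 above 20%. It had 37.9, 45.2, 42.4, 43.9 and 44.8% in arsenic libraries 1 to 5, and 39.8, 34.8, 33.8, 26.8 and 38.4% in control libraries 1 to 5 (adjusted p = 0.809). Arsenic library 1 lay within the control range. The CpGs of the Btg3 shore differed from each other more than the groups did, with means over all libraries between 15.9 and 61.4%. Its dense neighbour had 2.15 ± 2.62% in arsenic libraries and 1.10 ± 1.19% in control libraries. The others were at Gm51460, a gene model (7.30 ± 7.72% in arsenic libraries, 0.573 ± 1.03% in control libraries), near Olfr1373, an olfactory receptor gene (3.94 ± 2.23% in arsenic libraries, 1.38 ± 0.178% in control libraries), at Tram1l1, a translocation-associated membrane protein gene (5.14 ± 2.86% in arsenic libraries, 1.45 ± 0.981% in control libraries), and at Supt5, a transcription elongation factor gene (5.68 ± 2.74% in arsenic libraries, 2.46 ± 2.35% in control libraries). Of these, the groups did not overlap at the Olfr1373 tile only. That tile lies between genes, and its dense neighbour is 17871 bp from Olfr1373. The dense neighbours at Gm51460, Olfr1373, Tram1l1 and Supt5 had lower means in arsenic than in control libraries. At Gm51460 they were 2.22 ± 0.774% in arsenic libraries and 3.32 ± 0.995% in control libraries.

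**Figure D5:**
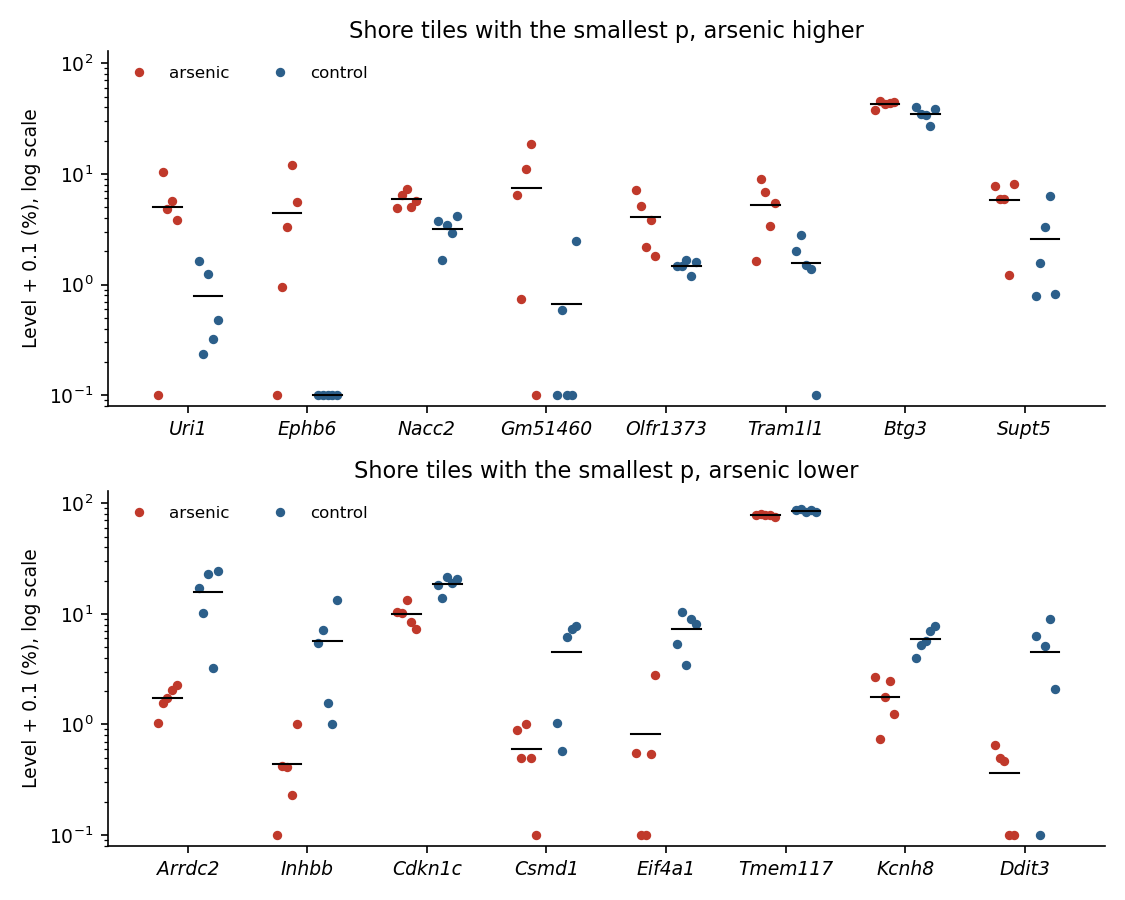
Methylation level plus 0.1 (%, log scale) of the 16 shore tiles with the smallest p, 8 with arsenic higher and 8 with arsenic lower, in 5 arsenic and 5 control libraries, with group means as lines. No tile passed the test, Tmem117 and Btg3 are the tiles above 20%, and the groups do not overlap at Nacc2, Olfr1373, Arrdc2, Cdkn1c, Eif4a1, Tmem117 and Kcnh8.

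The step itself was compared between groups by limma over the same 33344 pairs. No shore tile was called, and 0% of all pairs were, with a lowest adjusted p of 0.572 among shore tiles. At an unadjusted p under 0.05 there were 119 shore tiles (6.28%, against 5.13% of all pairs). Of the 3 with the smallest p and a larger step in arsenic, 1 lay inside Nexn, an actin-binding protein gene, and 1 inside Msc, a bHLH repressor gene. The other lay between genes and is named for Chd2, a chromatin remodeller gene 76255 bp from its dense tile. At each of the 3 it was the dense tile that had the smaller p between groups. The Nexn shore had 10.2 ± 2.96% in arsenic libraries and 9.90 ± 1.82% in control libraries, and its dense neighbour had 0.841, 0.962, 0.267, 1.15 and 0.757% in arsenic libraries 1 to 5, and 4.59, 1.65, 5.53, 4.73 and 7.72% in control libraries 1 to 5. The dense tile at Nexn thus had all arsenic libraries under all control libraries.

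The 3 with a smaller step in arsenic were at Endov, which encodes an endonuclease that cuts at inosine, Cdc42bpg, a kinase gene, and Eif4a1. At Eif4a1 the step was -3.06 ± 0.987 points in arsenic libraries and 0.663 ± 1.06 points in control libraries, so its size was larger in arsenic. The Endov shore (chr11:119490001-119491000) had no methylated read in any arsenic library, and had 4.76, 0, 8.70, 0 and 23.4% in control libraries 1 to 5. It had 32 to 105 read calls over 3 CpGs, and the thinnest library at 0 allows a level of up to 9.38% if calls are independent. Control libraries 2 and 4 were at 0 too, so the groups overlapped. The Cdc42bpg shore had 23.6 ± 4.61% in arsenic libraries and 28.8 ± 5.60% in control libraries, beside a dense tile of 6.18 ± 3.85% in arsenic libraries and 0.614 ± 0.252% in control libraries (step between groups, adjusted p = 0.572).

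Genes of testis, methylation and arsenic-related lists were taken as having a shore tile where an end of the gene lay within 1 kb of a shore's dense neighbour. That held for 30 of 239 listed autosomal genes (12.6%), against 1446 of 20661 autosomal protein-coding genes (6.999%). Of 45 developmental transcription factor genes, which usually have wide CpG islands, 11 had a shore tile, with 12 tiles and a median level of 3.25%. The highest was at Gata2, a haematopoietic factor (45.5 ± 7.40% in arsenic libraries, 41.6 ± 12.6% in control libraries), which was the one step called higher among the 12. The lowest was near Tbx3, a T-box factor, with no methylated read in arsenic libraries and 1.88 ± 3.21% in control libraries. Of 26 late spermatogenesis genes, 4 had a shore tile, with levels from 4.81 to 84.8%, a median of 46.4% and 3 steps called higher. Over all shore tiles the median was 5.22%, and 29.9% of steps were called higher. That share is the one to set beside the step counts of each list.

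The highest of the late spermatogenesis tiles lay inside Catsper2, beside a dense tile with the start sites of Catsper2, the gene of a sperm calcium channel subunit, and Pdia3, and had 86.1 ± 4.71% in arsenic libraries and 83.5 ± 6.97% in control libraries. The lowest was at Crem, a transcription factor of round spermatids, at 2.80 ± 2.23% in arsenic libraries and 6.81 ± 6.79% in control libraries. Of 18 Sertoli cell genes, 2 had a shore tile, Inhbb above and Gdnf, a growth factor for spermatogonial stem cells, at 5.81 ± 3.03% in arsenic libraries and 2.51 ± 2.42% in control libraries.

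Of 16 genes of the methylation machinery, Tet3 with its pair of flanks, Tet2 and Dnmt3l had shore tiles, 4 in all, with 2 steps called higher. Of 24 genes of one-carbon and arsenic metabolism, Slc2a1, the glucose transporter, and Mat2a, which makes S-adenosylmethionine, had 3 tiles, 1 of which was called higher than its neighbour. Slc2a1 had the highest, at 15.6 ± 2.75% in arsenic libraries and 15.6 ± 2.93% in control libraries, and Mat2a the lowest, at 1.57 ± 0.873% in arsenic libraries and 2.48 ± 1.49% in control libraries. Of 30 oxidative stress genes, 4 had a tile and no step was called. Mt2, a metallothionein, was highest at 7.29 ± 1.49% in arsenic libraries and 7.54 ± 2.68% in control libraries, and Srxn1, sulfiredoxin, was lowest at 0.910 ± 1.42% in arsenic libraries and 0.923 ± 2.06% in control libraries.

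Of 18 maternally methylated imprinted genes, Grb10, a growth factor receptor adaptor, alone had a shore tile. It had 10.7, 18.8, 16.6, 16.7 and 13.6% in arsenic libraries 1 to 5, and 17.8, 15.7, 19.06, 18.5 and 22.1% in control libraries 1 to 5, and the groups overlapped. Of 24 ribosomal and translation genes, Rps19, a small subunit protein, Eef2, the elongation factor, and Eif4a1 had a tile each. Rps19 was highest, at 20.8 ± 12.7% in arsenic libraries and 15.2 ± 8.38% in control libraries, and Eef2 lowest, at 1.91 ± 1.51% in arsenic libraries and 4.89 ± 4.21% in control libraries. None of the 24 germline genes, the 12 Leydig cell genes or the 13 peritubular, vascular and immune cell genes had a shore tile. No tile of any list was called between the groups. At an unadjusted p under 0.05, Inhbb, 1 of 2 Sertoli cell tiles, and Eif4a1, 1 of 3 translation tiles, were lower in arsenic and no list tile was higher. At that p, 4.01% of shore tiles and 3.34% of all tiles were lower, and 1.95% and 2.47% were higher. Lists with a tile held 1 to 12 each, too few to read a direction, a level or a share of called steps from.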

How the data were processed

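RRBS libraries of F2 mouse testis were grouped by the arsenic or control group in their labels. The submitters' processing notes name mm10 as the build, Bismark 0.22.3, methylKit 1.22.0 and Trim Galore 0.6.5, without settings. The deposited table holds raw read counts per cytosine and library (all, methylated, unmethylated), per the file headers, with no count under 10. It held 1988759 cytosines, and both strands of a CpG were joined into 1407384 CpGs. Levels of a tile are methylated out of all reads, then averaged over libraries, and each tile mean over a class weights tiles equally.

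Tiles and steps were tested as described above. The quasi-binomial dispersion was squeezed across tiles as in limma and kept at 1 or over, and both tests were checked on simulated data. The software was limma 3.58.1 in R 4.3.3, and pandas 2.3.3, scipy 1.17.1 and numpy 2.4.6 in Python 3.11.15. Gene names come from the RefSeq gene table and start sites from the RefSeq promoter table, both GRCm38.p6, the assembly behind mm10. All 16077 covered CpGs within promoter windows were CG there. The gene table gives no strand, and a tile is named by the protein-coding gene nearest its dense neighbour. Named were the 8 tiles with the smallest p in each direction, the 6 steepest rises and falls, the 3 smallest p of the step per direction, and the highest and lowest tile of each list.

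Replicate numbers did not pair libraries: same-numbered libraries had deviations from their group means that correlated at -0.01 to 0.02. The members and lists were chosen with earlier results of these data known. Alternatives changed the coverage, the limits of the rule, the model, and the libraries used.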

Additional observations from a re-analysis of the deposited data

Results flagged for a closer look

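In 4 of the groups named above, 1 library stood apart from the others, with a gap to the nearest one of more than 0.71 of the group's range. In all, 76 such groups of 5 libraries were examined, and chance flags about 1 in 20 groups. At Eif4a1, arsenic library 5 had 2.68% where the other arsenic libraries had at most 0.455%. At the tile between genes named for Chd2, arsenic library 2 had 2.57% where the others had 0.290 to 0.742%. At Gm51460, control library 5 had 2.38% where the others had at most 0.483%. At Lhx8, control library 5 had 6.73% where the others had 0.599 to 1.53%.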

How the results depend on the processing

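The mean level of shore tiles (19.14%), the mean step (13.3 points) and the counts of steps called (566 higher, 12 lower) moved with the limits of the rule. The counts moved partly because the number of tiles did, so they are given with their shares (29.9% higher and 0.633% lower with the main rule). With a coverage of at least 20 reads, 1001 shore tiles were left, with a mean of 19.97%, a step of 14.2 points and 302 called higher, 30.2% of them. A dense neighbour of at least 20 CpGs gave 4392 tiles with a mean of 27.7%, a step of 13.7 points, 1354 called higher (30.8%) and 93 lower (2.12%). One of at least 40 gave 831 tiles with 15.2%, 11.3 points, 221 higher (26.6%) and 2 lower (0.241%). Shores of 5 to 10 CpGs (1330 tiles) had 16.7%, 10.8 points and 341 higher (25.6%). With no minimum step, 899 of the 1895 shore tiles were called higher and 129 lower. These counts come without a share over all pairs at that setting, so they cannot be read as particular to shores. The count of tiles called between groups was 0 with each alternative except a binomial model that counts reads as independent, which called 17 shore tiles, 4 higher (0.211%, against 0.418% of all tiles) and 13 lower in arsenic (0.686%, against 0.779%).

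Leaving out each replicate in turn gave means of 19.0 to 19.2%, differences between groups of -0.53 to -0.19 points, steps of 13.3 to 13.4 points, 564 to 573 steps called higher, 10 to 14 called lower and 0 calls between groups. The replicate numbers do not pair the libraries. With the number as a block, 0 shore tiles and 0 steps were called between groups, and 50 shore tiles were higher (2.64%, against 2.73% of all tiles) and 99 lower (5.22%, against 3.955%) in arsenic at an unadjusted p under 0.05. No result reversed. Shore tiles had a median of 235 to 347 read calls, with 5 libraries a group. Small differences in tiles of 20 to 80% may thus not be detectable. Libraries of a group differ there by a median SD of 5.90 points.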

Other observations

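Of the miRNA hairpins in the RefSeq table, 7 lay inside shore tiles, and their tiles spanned the whole range of levels. Mir433, part of the imprinted cluster of chromosome 12, lay in a tile with 96.5 ± 1.27% in arsenic libraries and 96.2 ± 3.49% in control libraries (SD, n = 5 each). Mir6924 lay in a tile with 83.7 ± 12.7% in arsenic libraries and 78.2 ± 10.6% in control libraries, and Mir671 in a tile with 58.8 ± 4.91% in arsenic libraries and 57.8 ± 5.94% in control libraries. Mir191 and Mir425, which share a host transcript, lay in 1 tile with 7.70 ± 2.10% in arsenic libraries and 10.8 ± 4.65% in control libraries. Mir5046 lay in a tile with 9.90 ± 8.14% in arsenic libraries and 16.0 ± 9.85% in control libraries, and Mir5103 in a tile with 2.31 ± 2.12% in arsenic libraries and 3.47 ± 1.56% in control libraries. The groups of each of these tiles differed by less than the spread between libraries.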
